A study of Mus musculus with 4 samples.

Results

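Parietal cells are the acid-secreting cells of the gastric gland, and 10 genes of their proton pump, ion channels, exchangers and lineage regulation were followed here in the stomach of the mouse embryo. The genes were Atp4a, Atp4b, Esrrg, Kcnj15, Kcnj16, Kcne2, Kcnq1, Slc26a7, Slc9a4 and Clic6. They were taken by symbol from a table of estimated counts with 51098 genes, and each of the 10 had its own row. Stomachs were taken at E15.5, and their total RNA was sequenced after ribosomal RNA had been removed. The 4 samples formed 2 groups: Fgf9_null carried the LacZ allele of Fgf9 on both chromosomes (Fgf9LacZ/LacZ, also named Fgf9KO), and Fgf9_het, the control, carried it beside a normal copy (Fgf9LacZ/+). By the genotype field all samples, controls included, thus had at least 1 LacZ allele. The titles of the control samples instead call them WT, and the genotype field was followed here. Replicates 2 and 3 were present in each group, and whether embryos were pooled is not given in the sources used here.

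In the mature gland the pump exchanges cytoplasmic protons for potassium at the apical canaliculus. Potassium channels return the potassium to the lumen, chloride leaves beside the protons, and basolateral exchangers move bicarbonate, chloride, sodium and protons to keep the cytoplasm near neutral. The nuclear receptor encoded by Esrrg drives genes of oxidative metabolism and ion transport. Before birth the parietal lineage is still forming. Adult glands use these genes for acid secretion, but counts from whole stomach do not show which cells the reads came from.

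The columns of the 2 genotype labels could not be told apart for these genes. Between columns of the same replicate number, the largest difference in any of the 10 genes was 0.001 reads in replicate 2 and 2 reads in replicate 3. A chi-square test of same-numbered columns, over genes whose counts summed to 10 or more, gave 0.000792 and 0.00385 per degree of freedom once 4 genes with an unadjusted edgeR p under 0.05 were left out, and 4.46 and 4.64 with them. Columns of different number gave 5.49 to 5.50 without those 4 genes. Outside those 4 genes, which were picked for differing between the labels, same-numbered columns thus differed by less than sampling noise. They were counted as 1 sample. This leaves 2 independent libraries, referred to by their replicate numbers as library 2 and library 3. Each library stands under both labels, and the genotype of neither is resolved by the table. Column totals ran from 19269851 to 22713416, at which 3 counts, taken as the detection floor, equal 0.132 to 0.156 CPM (counts scaled to the column total). Reads of Fgf9 numbered 133 and 131 under each label. Stomach markers were present, with the claudin gene Cldn18 of the gastric epithelium at 377 ± 7.11 CPM (SD, n = 2 libraries) and the chymosin gene Cym at 4692 ± 269 CPM, while Sftpc and Scgb1a1 of lung had no counts and Sftpb of lung at most 6.23 reads. Of 6 pancreas markers, Ins2 and Ptf1a had no counts and 3 reached 1 CPM in both libraries, among them Pdx1 at 5.41 and 5.54 CPM.

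Both subunits of the proton pump were transcribed at this age. Atp4a (ENSMUSG00000005553), which encodes the catalytic alpha subunit, lies in GRCm38 at chromosome 7, 30712209 to 30725534 on the plus strand, and its longest coding transcript has 22 exons. It had 450 reads in replicate 2 under each label and 802 reads in replicate 3 under each label. As CPM this was 23.0 and 23.4 in the replicate 2 columns and 35.3 and 35.8 in the replicate 3 columns. Library 3 was thus the higher, with the columns of each number counted as 1 sample. The ratio of library 3 to library 2 was 1.53, with a 95% exact binomial counting interval of 1.36 to 1.72. That interval covers counting error only, and 1 sample per library allows no test.

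Atp4b (ENSMUSG00000031449, chromosome 8, 13386205 to 13396825, minus strand), the gene of the glycosylated beta subunit that carries the pump to the membrane, differed less between the libraries. It had 543 reads in replicate 2 under each label, and 716 and 718 reads in replicate 3 of Fgf9_null and Fgf9_het. The level was 28.0 CPM in library 2 against 31.8 in library 3, a ratio of 1.14 with a counting interval of 1.01 to 1.27. The counting intervals of the 2 subunit genes did not overlap, so Atp4a stood further toward library 3 than Atp4b by more than counting error. In CPM the subunit genes had nearly the same mean, 29.4 ± 8.73 for Atp4a and 29.9 ± 2.68 for Atp4b (SD, n = 2 libraries), and their ranges overlapped. Per kilobase of the longest coding transcript (3485 bases for Atp4a and 1378 for Atp4b), Atp4b was the higher of the pair, at 20.3 and 23.1 against 6.66 and 10.2 CPM per kilobase in libraries 2 and 3. The length-scaled level of Atp4b was 3.05 times that of Atp4a in library 2 and 2.26 times in library 3.

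The sequence before the start of Atp4a is shown because this gene had the highest ratio of library 3 to library 2 among the 10, and that before the first start of Kcnj16, a potassium channel gene described below, because Kcnj16 was the lowest of the 10 and its windows alone held a searched motif. Each is the 250 bases upstream of a RefSeq start in GRCm38.p6, 5′ to 3′ on the plus strand, and capitals mark a motif match.
Atp4a, chr7:30711959-30712208: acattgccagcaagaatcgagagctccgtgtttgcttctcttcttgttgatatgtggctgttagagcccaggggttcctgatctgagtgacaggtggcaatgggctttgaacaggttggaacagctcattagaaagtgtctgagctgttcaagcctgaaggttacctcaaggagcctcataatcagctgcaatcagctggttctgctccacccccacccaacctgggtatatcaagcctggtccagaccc
Kcnj16, chr11:110967783-110968032: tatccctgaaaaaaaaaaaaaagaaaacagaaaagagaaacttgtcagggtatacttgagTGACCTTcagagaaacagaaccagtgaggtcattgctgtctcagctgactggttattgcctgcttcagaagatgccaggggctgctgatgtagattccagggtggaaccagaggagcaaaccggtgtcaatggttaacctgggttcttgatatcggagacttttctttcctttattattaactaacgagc
The RefSeq promoter table matched 5 of the 10 genes, with 12 start sites among them: Atp4a, Esrrg, Kcnj15, Kcnj16 and Kcne2. Both strands were searched for TCAAGGTCA (oestrogen-related receptors), for the last 7 letters of it, AAGGTCA, and for the GATA factor motif AGATAA. The full motif was in none of the 12 windows and in 0.387% of all 32851 windows of the same length. Its 7-letter part was in 1 of the 12, on the other strand in the Kcnj16 window printed above, and in 4.08% of all windows. The GATA motif was in 1 of the 12, before another start of Kcnj16 (chr11:111019335-111019584), and in 9.99% of all windows. A match is a description of letters and not of a bound site.

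**Figure D1:**
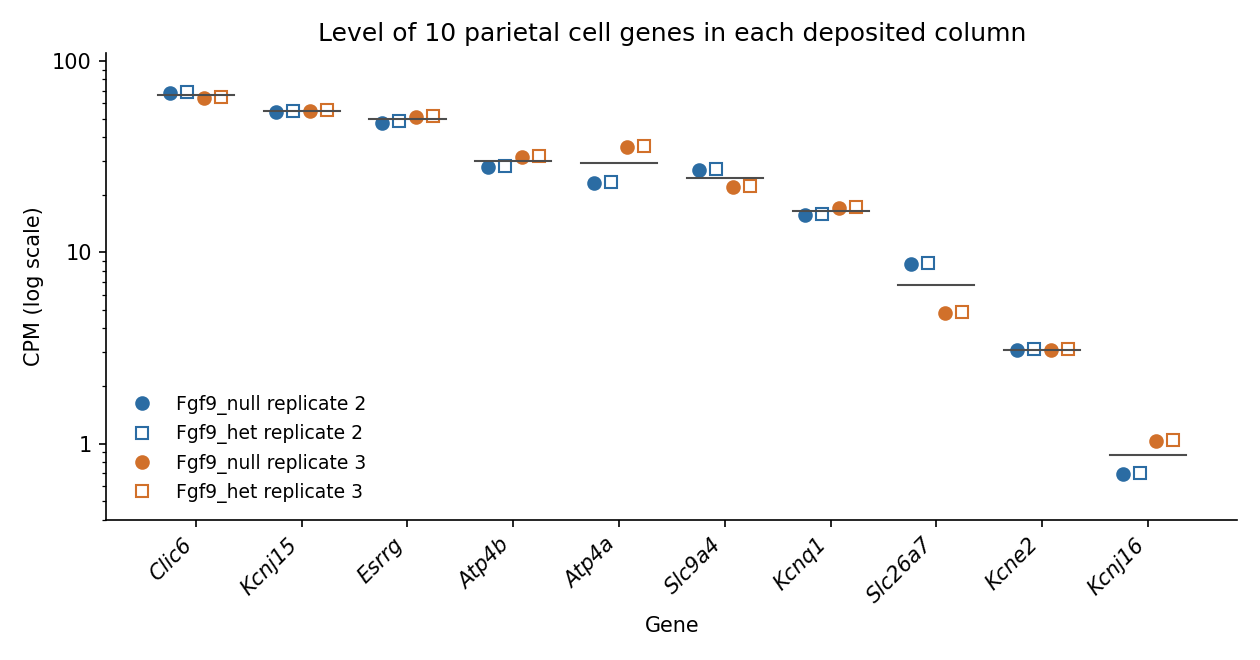
CPM (log axis) of the 10 genes in each of the 4 columns, ordered by mean; filled circles are Fgf9_null, open squares Fgf9_het, blue replicate 2 and orange replicate 3, and the line is the mean of the 2 libraries. Same-numbered columns lie side by side for every gene, whereas Atp4a is higher in replicate 3 (35.3 and 35.8 against 23.0 and 23.4 CPM) and Slc26a7 higher in replicate 2.

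Esrrg (ENSMUSG00000026610, chromosome 1, 187608791 to 188214885, plus strand), the gene of the orphan nuclear receptor, was among the 3 highest of the 10 in CPM and spans 606 kb. It had 930 reads in replicate 2 under each label, and 1151 and 1152 reads in replicate 3 of Fgf9_null and Fgf9_het. Its level was 47.9 CPM in library 2 against 51.0 in library 3, a ratio of 1.06 with a counting interval of 0.976 to 1.16 that includes equal levels. The 2 antisense genes inside its span and present in the table, 9330162B11Rik and Gm36388, had at most 58 and 4 reads and share no exon bases with it.

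Potassium recycling genes spanned the widest range of levels among the roles. Kcnj15 (ENSMUSG00000062609, chromosome 16, 95257558 to 95300260, plus strand), an inward rectifier potassium channel gene, had 1054 reads in each replicate 2 column and 1238 in each replicate 3 column. Its libraries were level, 54.3 CPM in library 2 beside 54.9 in library 3, with a ratio of 1.01 and a counting interval of 0.929 to 1.10. Kcnj16 (ENSMUSG00000051497, chromosome 11, 110968033 to 111027968, plus strand), whose product assembles with other inward rectifier subunits, was close to the detection limit. It had 14 reads in each replicate 2 column and 23 in each replicate 3 column, equal to 0.700 and 1.04 CPM, and was the only one of the 10 genes under 1 CPM in a library. The ratio of 1.48 had a counting interval of 0.697 to 2.97, so a difference between the libraries was not detectable at this depth. Per kilobase Kcnj15 was 50.3 and 34.3 times as high as Kcnj16 in libraries 2 and 3.

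Kcnq1 and Kcne2 encode the pore and the accessory subunit of the apical channel that returns potassium to the gland lumen. Kcne2 (ENSMUSG00000039672, chromosome 16, 92292389 to 92298129, plus strand) had 60 reads in each replicate 2 column and 70 in each replicate 3 column. This was 3.09 and 3.10 CPM in libraries 2 and 3, but with so few reads the ratio of 1.00 had a counting interval of 0.700 to 1.44. Kcnq1 (ENSMUSG00000009545, chromosome 7, 143106362 to 143427042, plus strand) had 305 and 388 reads, equal to 15.7 and 17.2 CPM in libraries 2 and 3. Its ratio of 1.09 had a counting interval of 0.939 to 1.27, which includes equal levels. Kcnq1 exceeded Kcne2 per kilobase by 2.84 times in library 2 and 3.09 times in library 3. With the mean length of the coding transcripts in place of the longest, the ratio was 10.3.

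The count of Kcnq1 carries an uncertainty from an abundant antisense RNA. Kcnq1ot1, the long non-coding RNA that silences neighbouring imprinted genes in cis, runs antisense through Kcnq1 as a single exon of 93.1 kb (chromosome 7, 143203458 to 143296549, minus strand). It had 16325 to 16356 reads per column, far above the 305 to 388 reads of Kcnq1. Exon 11 of the 16 exons of the longest coding transcript of Kcnq1, 121 bases of coding sequence and 3.99% of that transcript, lies wholly inside it. That exon is printed 5′ to 3′ on the plus strand, from the GENCODE M21 transcript sequence, because reads from it match both genes unless strand is used.
Kcnq1 exon 11, chr7:143261256-143261376: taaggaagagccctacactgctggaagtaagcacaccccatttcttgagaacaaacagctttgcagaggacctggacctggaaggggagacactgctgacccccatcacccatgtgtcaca
The same bases are found as the reverse complement in the Kcnq1ot1 transcript. The strand setting of the counting is not given in the sources used here, so how far Kcnq1ot1 reads entered the count of Kcnq1 was not tested. Estimated counts were whole numbers within 0.01 in all columns for 6 of the 10 genes and not for Kcnj15, Kcnj16, Kcnq1 and Slc9a4. Of these 4, Kcnj15 shares 333 exon bases with the antisense gene Gm49643, which had 16.0 to 17.6 reads, and Slc9a4 shares 207 with the antisense gene Gm35801, which had 1.22 to 2.36 reads. Slc9a4 also shares 764 exon bases with Gm37435 on the opposite strand, more than any other member shares with a neighbour. Gm37435 has no row among the estimated counts, so its reads are not known here. Kcnj16 has no annotated neighbour within 10 kb.

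Anion and proton exchangers of the basolateral side were higher in library 2. Slc26a7 (ENSMUSG00000040569, chromosome 4, 14502430 to 14621805, minus strand), a chloride-bicarbonate exchanger gene, had 169 reads in replicate 2 under each label, and 109 and 110 reads in replicate 3 of Fgf9_null and Fgf9_het. Its level was 8.71 CPM in library 2 against 4.85 CPM in library 3, which makes it 1.80 times as high in library 2 with a counting interval of 1.40 to 2.29. Slc9a4 (ENSMUSG00000026065, chromosome 1, 40580081 to 40630725, plus strand), a sodium-proton exchanger gene, had 525 reads in each replicate 2 column and 498 in each replicate 3 column. Its level of 27.0 CPM in library 2 was 1.23 times the 22.1 CPM of library 3, with a counting interval of 1.08 to 1.39. Both exchanger genes thus lay toward library 2 and both pump genes toward library 3 by more than counting error, and these directions have no replicate check.

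Clic6 (ENSMUSG00000022949, chromosome 16, 92485736 to 92541243, plus strand), of the chloride intracellular channel family, had the highest CPM of the 10. It had 1327 reads in replicate 2 under each label, and 1460 and 1461 reads in replicate 3 of Fgf9_null and Fgf9_het. The level was 68.4 CPM in library 2 against 64.7 in library 3, and the ratio of 0.946 had a counting interval of 0.878 to 1.02. Clic6 and Kcne2 lie 188 kb apart on chromosome 16, and Clic6 was 9.95 and 9.38 times as high as Kcne2 per kilobase in libraries 2 and 3, and 17.3 times with the mean length of the coding transcripts. Kcnj15 lies on the same strand 2716 kb beyond Clic6.

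**Figure D2:**
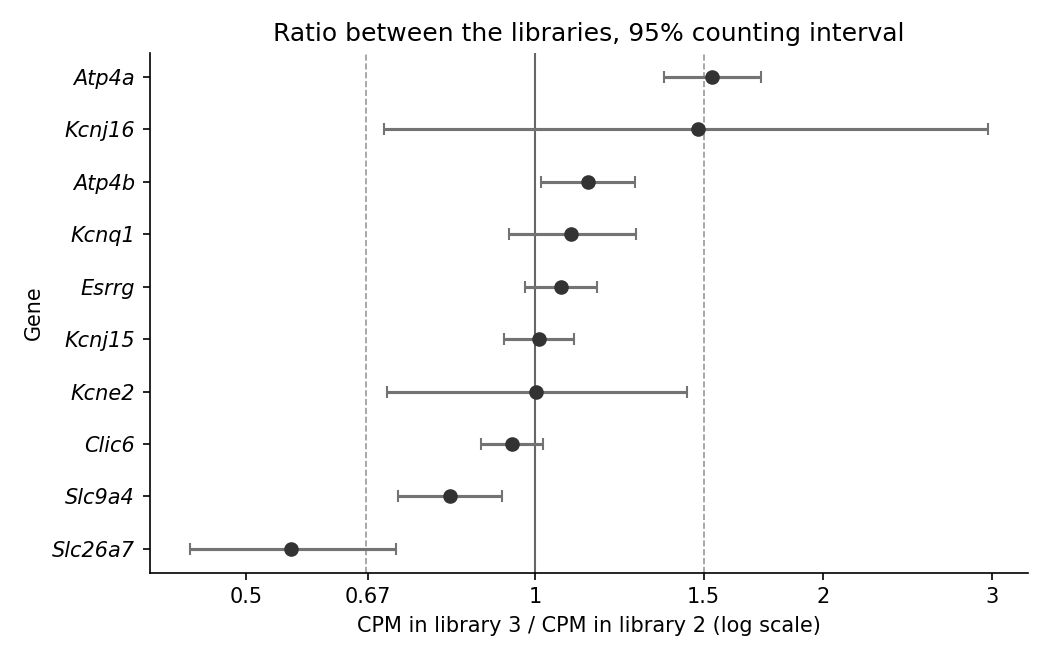
Ratio of CPM in library 3 to CPM in library 2 for each gene (log axis); bars are 95% exact binomial counting intervals, the solid line marks equal levels and the dashed lines 1.5-fold in either direction. Atp4a (1.53) lies past the upper line and Slc26a7 (0.557) past the lower one, and 6 of the 10 intervals include equal levels.

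Together the 10 genes summed to 277 CPM in library 2 and 286 CPM in library 3. In bulk tissue, a lower level can reflect fewer cells of a type or less RNA per cell, which cannot be told apart. Of the 10, 7 had the higher level in library 3, against 45.8% of the 16712 genes that reached 1 CPM in both libraries. The 7 include Kcnj16, which is not among those 16712 genes, and 6 of the 10 counting intervals include equal levels. Past 1.5-fold were 2 of the 9 genes that reached 1 CPM in both libraries, Atp4a toward library 3 and Slc26a7 toward library 2, against 3.88% of those 16712 genes (1.36% toward library 3 and 2.52% toward library 2). The median ratio of library 3 to library 2 was 1.01 over those 9 genes and 0.989 over all 16712. With so few genes and 1 sample per library, the count is a description of this pair of libraries.

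Markers of other gastric cells moved with the libraries to different extents. The 6 epithelium markers summed to 2117 and 2136 CPM in libraries 2 and 3, and none of them passed 1.5-fold. Forestomach squamous markers were lower in library 3 for 6 of 6 genes, at a summed 643 against 347 CPM. Chief and neck cell markers were lower there for 5 of 6 genes, at a summed 5296 against 4867 CPM, with the pepsinogen gene Pga5 at 56.6 against 32.2 CPM. The 5 liver markers summed to 35.0 against 56.9 CPM in libraries 2 and 3, with 4 of 4 genes at 1 CPM higher in library 3. Surface mucous markers summed to 376 and 392 CPM and endocrine markers to 18.9 and 21.3 CPM. The part of these differences in the ratios of Atp4a, Slc26a7 and Slc9a4 was not tested. The kidney genes Umod and Slc12a1 had no counts, and among the 5 kidney markers Nphs1 alone reached 1 CPM, at 6.22 and 8.67 CPM.

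**Figure D3:**
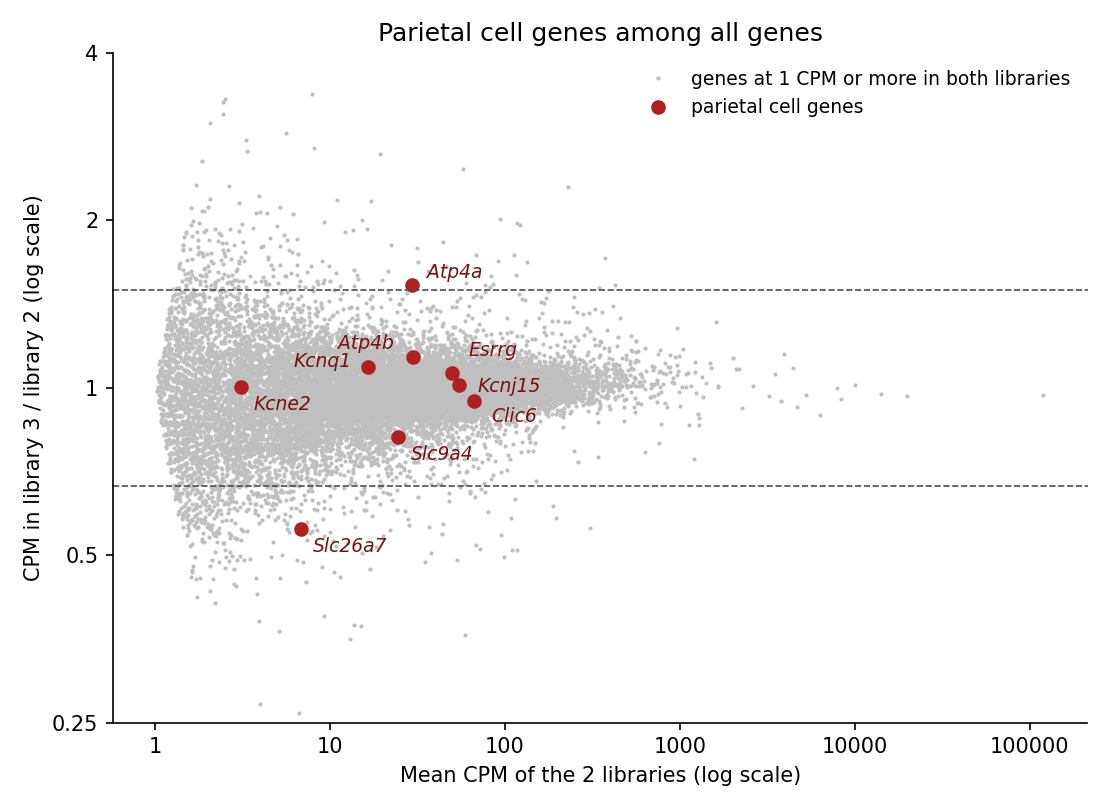
Ratio of library 3 to library 2 against mean CPM (both log axes) for the 16712 genes that reached 1 CPM in both libraries (grey) and the 9 parietal cell genes among them (red); dashed lines mark 1.5-fold, and 7 genes lie outside the vertical axis of 0.25 to 4. Atp4a and Slc26a7 lie past the dashed lines and the other red points between them.

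Scaled by length, the 10 genes formed an order that CPM alone does not show. The mean level per kilobase of the longest coding transcript was 21.7 ± 1.94 for Atp4b and 17.7 ± 0.692 for Clic6 (SD, n = 2 libraries), the 2 highest. Kcnj15 at 9.57 ± 0.0658, Esrrg at 9.21 ± 0.407, Atp4a at 8.43 ± 2.50, Slc9a4 at 6.20 ± 0.889 and Kcnq1 at 5.44 ± 0.337 CPM per kilobase followed. Kcne2 at 1.83 ± 0.00388, Slc26a7 at 1.31 ± 0.528 and Kcnj16 at 0.235 ± 0.0644 CPM per kilobase closed the order. Of the 9 neighbouring pairs in it, 3 had overlapping ranges over the 2 libraries and are not separated. These were Esrrg with Atp4a, Atp4a with Slc9a4, and Slc9a4 with Kcnq1. The range of Atp4a, 6.66 to 10.2, also spans that of Kcnj15, 9.52 to 9.62. Such ranges leave out counting error. Kcnj15 at its lowest, 9.52, is not separated from Esrrg at its highest, 9.50. Kcne2 at 1.83 is not separated from Slc26a7 at 1.69 in library 2, where 60 reads of Kcne2 had a counting interval of 45.8 to 77.2. Among the 14332 coding genes that reached 1 CPM in both libraries, Atp4b stood above 82.5% and Clic6 above 77.3% per kilobase, Atp4a above 52.3% and Kcne2 above 16.1%. The highest of the 10 was 92.4 times the lowest per kilobase.

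The order depended on which transcript length was used. With merged exons the order was the same, and levels were 0.740 to 0.960 times as high. With the mean length of the coding transcripts Clic6 passed Atp4b, at 32.2 against 21.7 CPM per kilobase. Slc26a7 passed Kcne2, at 3.26 against 1.86, and Kcnq1 passed Slc9a4, Atp4a, Esrrg and Kcnj15, the last at 18.2. Kcnq1 then rose from 5.44 to 19.2 CPM per kilobase, since that mean over its 7 coding transcripts is 858 bases against 3029 for the longest. The transcripts in use in this tissue are not resolved by gene-level counts.

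**Figure D4:**
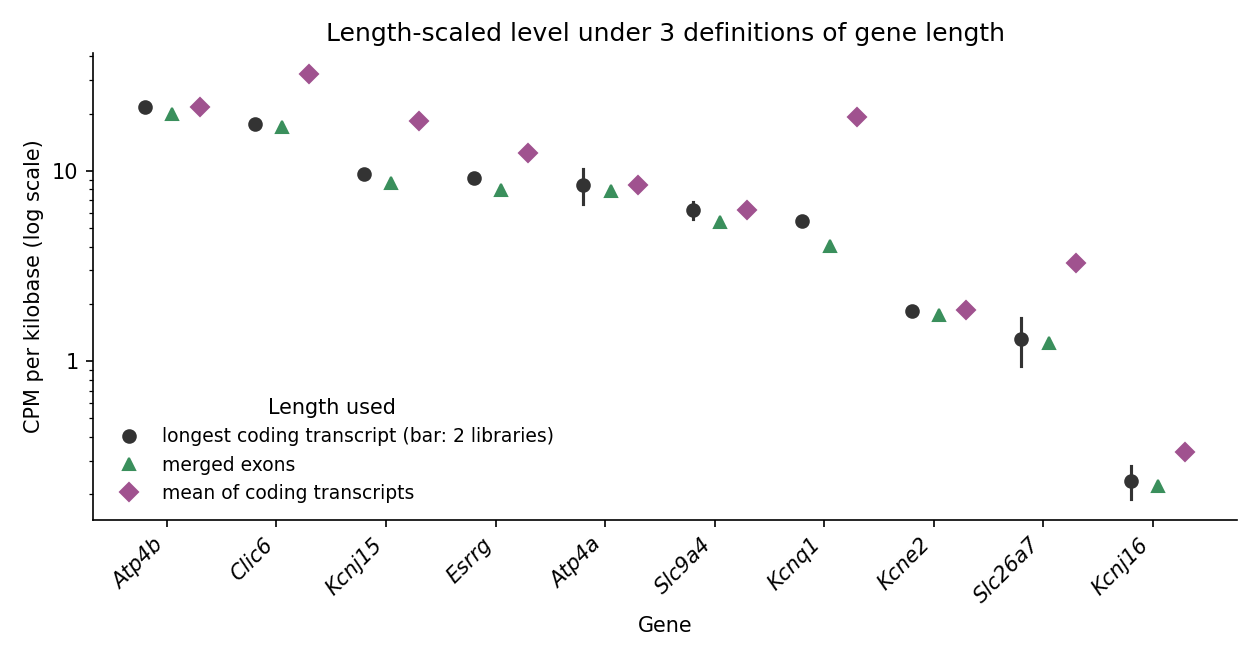
CPM per kilobase (log axis) of each gene, with the length taken from the longest coding transcript (black, bar spanning the 2 libraries), the merged exons (green) or the mean of the coding transcripts (purple). Kcnq1 moves most, from 5.44 to 19.2, while Atp4b stays at 21.7 with both coding transcript lengths.

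The comparison that the series states, Fgf9_null against Fgf9_het, gave no call for any of the 10 genes, and edgeR's log2 folds were near 0. edgeR's quasi-likelihood test called 0 of the 10 at an adjusted p under 0.05, with 0% of 19987 genes called, 4 genes at an unadjusted p under 0.05 and none of the 10 among them. The largest absolute log2 fold among the 10 was 0.00470, for Slc26a7, at an edgeR adjusted p of 1. DESeq2 also called 0 of the 10, with 0.015% of genes called. Under a replicate block, edgeR called 5.89% of all genes and 1 of the 10, Slc26a7, at a log2 fold of -0.00479 and an edgeR adjusted p of 9.72e-05. That call rests on 109 reads under Fgf9_null and 110 under Fgf9_het in replicate 3, beside 169 reads under each label in replicate 2. Since each library stands on both sides, these p-values reflect only the spread among the 4 columns and cannot measure an effect of Fgf9.

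Other genes of acid secretion were read from 7 lists with 52 genes, all in the table. edgeR tested 49 of them and called 0 in either direction between the genotype labels, against 0% of all genes. With the replicate block it called 2, both lower under the Fgf9_null label, against 5.89% of all genes. Between libraries 2 and 3, none of the listed genes at 1 CPM or more in both passed 1.5-fold, against 3.88% of all 16712 such genes. With so few listed genes, none is close to that share and is not a trait of the lists.

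All 8 genes of receptors and signals that start or stop acid secretion lay below both pump genes per kilobase. Chrm3, a muscarinic acetylcholine receptor gene, and Ptger3, a prostaglandin receptor gene, were highest at 17.6 ± 0.265 and 12.6 ± 0.0320 CPM (SD, n = 2 libraries). Per kilobase they had 4.07 and 4.02 CPM, and which cells their reads came from was not tested. The histamine receptor gene Hrh2 had 1.03 and 1.20 CPM in libraries 2 and 3, and the gastrin receptor gene Cckbr 5.21 and 4.03 CPM. The somatostatin gene Sst was near the floor, at 0.155 and 0.177 CPM. The names outside the highest pair of each list were chosen after their values were seen.

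Transporters that serve the basolateral side and the bicarbonate supply included genes at higher levels than Slc26a7 and Slc9a4. Slc12a2, the sodium-potassium-chloride cotransporter gene, stood at 186 ± 3.08 CPM, and Slc4a2, the main anion exchanger gene of adult parietal cells, at 105 ± 0.817 CPM. Per kilobase these were 28.6 and 24.7, against 6.20 for Slc9a4 and 1.31 for Slc26a7. Car2, a carbonic anhydrase gene, had 44.1 CPM per kilobase. All but Kcnj1, which had no more than 3 counts in any column, reached 1 CPM in both libraries among these 13 genes. The tubulovesicle and canaliculus list, whose products move and anchor the pump membranes, was led by Ezr (ezrin) at 282 ± 11.4 CPM and Lasp1 at 206 ± 0.665 CPM, and all 8 genes reached 1 CPM in both libraries. These genes are also used by many other cells.

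Relatives of the pump set its level in context. The sodium pump beta subunit gene Atp1b1, used by nearly all cells, had 274 ± 10.4 CPM (SD, n = 2 libraries), or 106 CPM per kilobase, against 21.7 per kilobase for Atp4b. The colonic proton pump gene Atp12a had no more than 3 counts in any column.

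**Figure D5:**
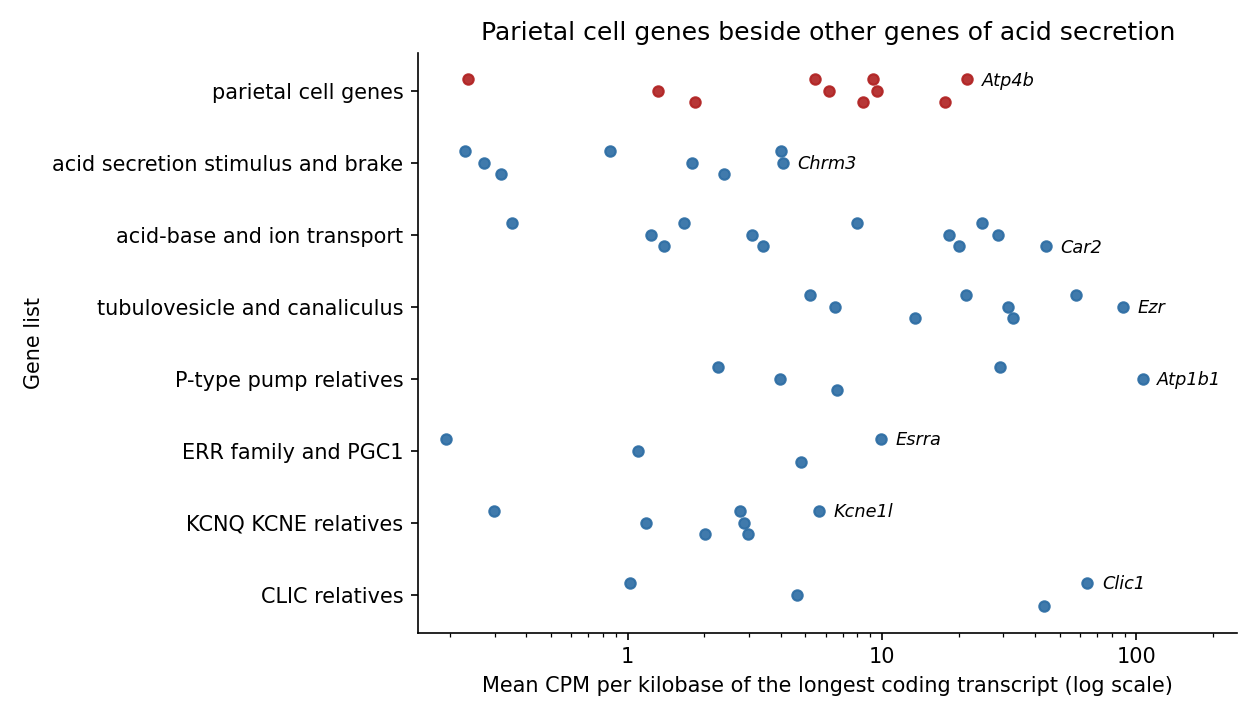
Mean CPM per kilobase of the longest coding transcript (log axis) for the 10 parietal cell genes (red) and for genes of the 7 lists of other acid secretion genes and family relatives (blue, above 3 counts); points are spread vertically for display and the highest shown of each list is named. Atp4b at 21.7 lies below Car2 (44.1), Ezr (89.0) and Atp1b1 (106) and above every gene of the stimulus and brake list.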

How the data were processed

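The authors deposited estimated counts, 1 row for each Ensembl gene, without depth scaling. FastQC 0.10, Trimmomatic 0.33, Salmon 1.8.0, edgeR, GRCm38 and mm10 are named in the submitters' processing notes, without roles or order. The annotation release, the strand setting and how transcripts were joined to genes: not given in the sources used here. Samples were grouped by the genotype field and matched to columns by title. The table's 2 columns with no name were not used.

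CPM used the column total, and same-numbered columns were averaged. After rounding, edgeR 4.0.16 (R 4.3.3) was run on the estimated counts (TMM, filterByExpr, quasi-likelihood without legacy, Benjamini-Hochberg, threshold 0.05); DESeq2 1.42.0 and limma 3.58.1 (voom) were alternatives. The same tests were checked on simulated data. The pairing check gave a correlation of 0.998 over 19987 genes between deviations from the group mean in same-numbered columns, which hold the same library. Coordinates and lengths came from GENCODE M21 (GRCm38), which held 50870 of the 51098 identifiers. The members and lists were chosen with earlier results of these data known. All 10 members were named, and of each list the 2 genes with the highest mean CPM and any at or under 3 counts; others are said to be chosen after their values were seen, and some list genes are not reported here. The marker lists beside the libraries' differences were fixed with them: epithelium, surface mucous, chief and neck, squamous, endocrine, smooth muscle, liver, pancreas, kidney, heart, and lung and oesophagus.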

Additional observations from a re-analysis of the deposited data

How the results depend on the processing

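Limits are set by 2 independent libraries, by low counts (14 and 23 reads of Kcnj16, 60 and 70 of Kcne2) and by the transcript length used. edgeR's 0 called genes between the labels stayed at 0 with RLE factors, both other filters, limma-voom and the legacy method; the last pair was chosen after seeing the data. DESeq2 called 3 genes, and the replicate block 1178, with each library set against itself and 1 member among them. Leaving out 1 column gave 1 to 2 called genes and 0 members, on the assumption that a group's remaining column varies as the other group does. The members' log2 folds were -0.00674 to 0.000829 over the settings with all columns and -0.461 to 0.443 without 1 column. Of 109 such values under alternatives, 108 kept their side of the threshold, 1 passed it, and 24 uncalled ones differed in sign. The 649 genes past 1.5-fold between the libraries became 157 of 12731 at 5 CPM or more, and the members past it 1 in place of 2, Atp4a, since Slc26a7 had 4.85 CPM in library 3. With TMM-scaled library sizes 3 of all 10 members were past it, the third being Kcnj16, which lies under 1 CPM in library 2, at a ratio of 1.502. All 40 alternative values of the members' library ratios stayed within their counting intervals. They came from each label's columns alone, which hold the same libraries, or from other library sizes, which rescale every ratio alike. Staying inside was thus nearly fixed in advance and is no check of the ratios. Without structured and mitochondrial RNAs in the library size, levels were 1.22 times as high.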

Other observations

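Relatives of the potassium channel, chloride channel and nuclear receptor genes were measured as well. Among the CLIC family, Clic4 and Clic1 had 179 ± 2.19 and 94.2 ± 1.17 CPM (SD, n = 2 libraries), against 66.6 ± 2.60 CPM for Clic6. Per kilobase they stood at 43.5 and 64.2, against 17.7 for Clic6. Of the KCNQ and KCNE relatives, Kcnq3 had 33.8 ± 3.88 CPM. Per kilobase it had 2.86, below the 5.44 of Kcnq1. The accessory subunit gene Kcne1l had 5.63 CPM per kilobase, above the 1.83 of Kcne2; it was named after its value was seen.

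Esrra, which encodes another oestrogen-related receptor, had 22.2 ± 1.26 CPM and 9.92 CPM per kilobase, against 9.21 for Esrrg. In CPM Esrrg was the higher, at 49.5 ± 2.19. With the mean length of its coding transcripts Esrrg had 12.4 CPM per kilobase. Esrra was not scaled by that length, so the order of this pair per kilobase is not settled. The coactivator gene Ppargc1b stood at 17.6 ± 0.924 CPM. Smooth muscle markers summed to 5494 CPM in library 2 and 5705 CPM in library 3, heart markers to 34.8 and 35.3, pancreas markers to 11.1 and 12.9, kidney markers to 6.51 and 9.34, and lung and oesophagus markers to 0.457 and 0.0927 CPM.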
